A study of Bos taurus with 27 samples.

Results

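The comparison was between calves born to primiparous heifers that first received colostrum at 12 h after birth (TRT12_H) and calves born to such heifers that received it immediately after birth, at 0 h (TRT0_H). The members were chosen by feeding time and by the parity of the dam, which gave 4 calves in each group, 8 of the 27 calves of the series. All were male Holstein calves, tube-fed pooled, pasteurized colostrum once and then milk replacer, and colon tissue just below the junction with the ileum was taken at 51 h of age and sequenced. The groups therefore differed in feeding time and also in the time since the first meal, which was 51 h in TRT0_H and 39 h in TRT12_H. Milk replacer began 12 h after the colostrum meal, so it also began at a later age in TRT12_H. These differences cannot be told apart here. Calves are named by their ear tags, and values are given in the order 4124, 4135, 4138 and 4164 for TRT0_H and 4117, 4128, 4139 and 4168 for TRT12_H. The calves of multiparous cows fed at the same times, 5 in TRT0_C and 5 in TRT12_C, are used to test whether the difference depended on parity. They enter the common fit from which the spread of each gene was estimated. Calves first fed colostrum at 6 h after birth also enter that fit, 4 of heifers (TRT6_H) and 5 of cows (TRT6_C), so that it held all 27 calves. Their levels are given for a few genes.

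Colostrum is the first milk and carries immunoglobulins, growth factors, hormones and nutrients. The newborn calf takes up its immunoglobulins across the gut wall for a limited time after birth, and the gut epithelium, its immune cells and its connective tissue develop quickly in the same days. The wall of the colon holds an epithelium of absorptive and mucus-secreting cells, a lamina propria with immune cells, fibroblasts and vessels, and layers of smooth muscle with enteric nerves. In tissue RNA of this kind, fewer cells of a type and less RNA per cell cannot be told apart.

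The 8 libraries held 1314579 to 4202593 counts assigned to genes, and 14515 of 24616 genes reached a CPM (counts scaled to a common library total) of 1 in at least 4 of the 8 calves and were tested. These totals lie far below the average number of reads per sample that the study reports, and the reason was not examined. Symbols were in hand for 3814 of the genes tested, so most genes could be given only by identifier. TRT12_H calves 4117 and 4168 were sequenced in a lane of another run, called lane 1 here, which held no TRT0_H calf, while all others of the 8 were in lanes 6 and 7 of the main run. Among calves of cows the imbalance was the reverse, as lane 1 held TRT0_C calves 4108 and 4133 and no TRT12_C calf. No pair of the 8 libraries was identical, and counts of each pair differed by more than sampling noise, with a chi-square of 3.96 to 14.99 per degree of freedom over 28 pairs. Markers of the colon wall were present. The smooth muscle myosin MYH11 lay between 2626 and 4560 CPM, and the epithelial adhesion molecule EPCAM between 279 and 647 CPM, over the 8 calves. The defining markers chosen for T cells, B cells and small intestine had no symbol in hand and were not analysed here.

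No gene passed in TRT12_H vs. TRT0_H. With edgeR's quasi-likelihood test, 0 of 14515 genes (0%) had an adjusted p (Benjamini-Hochberg) of 0.10 or less with a fold change of 1.2 or more, and the lowest adjusted p was 0.9999. At an unadjusted p under 0.05 there were 510 genes (3.51%), 251 with a higher mean in TRT12_H (1.73%) and 259 with a lower mean (1.78%). With library totals in place of TMM factors this split was 372 higher and 148 lower. The groups did not overlap in 131 genes where TRT12_H was higher (0.903%) and in 144 where it was lower (0.992%). DESeq2 called 1 gene and edgeR's exact test on the 8 calves called 3, while limma voom and the likelihood ratio test called 0. The genes described next are therefore an ordered description of the differences and not a set of genes that changed.

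**Figure D1:**
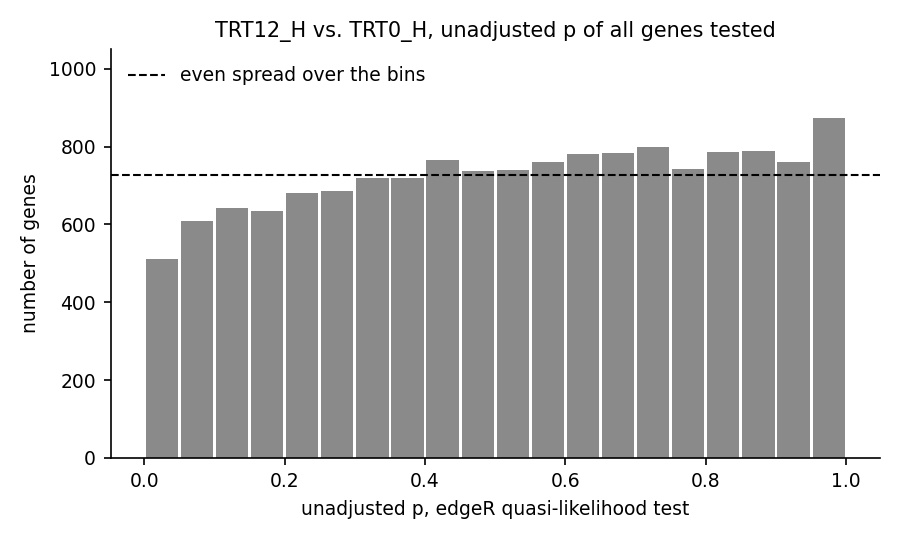
Number of genes (y axis) in each bin of unadjusted p (x axis) for TRT12_H vs. TRT0_H over the 14515 genes tested, with a dashed line at an even spread of 726 genes per bin. The bin under 0.05 held 510 genes, the fewest of the 20 bins.

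Among genes with a symbol and a higher mean in TRT12_H, the lowest unadjusted p belonged to LAP3 and WARS, which interferon gamma is known to induce though neither is in the list of interferon response genes used here. LAP3, a leucine aminopeptidase, was at 59.0, 68.8, 70.6 and 70.8 CPM in TRT0_H and at 239.7, 96.3, 92.5 and 102.6 CPM in TRT12_H. The groups did not overlap, and calf 4117 stood far above the other TRT12_H calves. The log2 fold change of LAP3 was 0.96 (SE 0.24, unadjusted p = 0.000404), and it lay between 0.53 and 1.11 when each calf was left out in turn. WARS, the tryptophanyl-tRNA synthetase, was at 142.7, 112.3, 92.9 and 115.3 CPM in TRT0_H and at 1277, 522.7, 100.2 and 124.0 CPM in TRT12_H. Only 4117 and 4128 were above the TRT0_H range. The log2 fold change of WARS was 2.12 (SE 0.57, unadjusted p = 0.000874), and its lowest value with 1 calf left out was 1.11.

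IRF1, a transcription factor that interferon induces, was at 88.5, 76.8, 58.7 and 56.2 CPM in TRT0_H and at 226.7, 110.8, 85.98 and 73.8 CPM in TRT12_H. Calves 4117 and 4128 were above the TRT0_H range and the others inside it, and the log2 fold change of IRF1 was 0.81 (SE 0.29, unadjusted p = 0.00931). PARP14, an ADP-ribosyltransferase of the same response, was at 284.3 CPM in calf 4117 against 98.2 to 133.5 CPM in the other TRT12_H calves and 62.8 to 123.9 CPM in TRT0_H. Of the 45 symbols in the list of interferon response genes only 4 had an identifier in hand. All 4 had positive log2 fold changes under each of the scalings run, 2 of them (IRF1 and PARP14) at an unadjusted p under 0.05 (background for higher genes 1.73%, or 1.91% among genes with a symbol), and the median was 0.68 against 0.00 over all genes tested. The count was 0 without calf 4117, without both calves of lane 1 or with lane as a term, and 1 without TRT0_H calf 4138 or 4164, and the median was 0.09 without both calves of lane 1. UBE2L6 and IFIT2, the others of the 4, had log2 fold changes of 0.29 and 0.59, with unadjusted p of 0.292 and 0.445.

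Calf 4117 held the highest sum of these genes. Summed over the 4 interferon response genes, TRT0_H calves held 138.4 to 222.4 CPM, and TRT12_H calves held 553.4, 250.2, 203.3 and 233.3 CPM, of which that of 4139 lay inside the TRT0_H range. In the lanes that held both groups, the median difference over the 4 genes was 0.13 on the log2 scale in lane 6 and 0.20 in lane 7, each from 1 TRT12_H calf against 2 TRT0_H calves. The antigen presentation genes BOLA-DRA and CD74, which are also interferon-responsive, were at 387.9 and 1092 CPM in calf 4117 and at 182.9 to 254.3 and 539.0 to 651.4 CPM in the other TRT12_H calves. In TRT0_H they were at 192.8 to 252.4 and 523.0 to 858.4 CPM. BOLA-DRA and CD74 were picked from the list after their values were seen. None of the 8 antigen presentation genes tested had an unadjusted p under 0.05 (background 3.51% in either direction). The median log2 fold change of the 8 was 0.24, and 0.05 without both calves of lane 1. ENSBTAG00000005413, a gene without a symbol here, had the same calves on top as WARS and IRF1, with 99.3 and 71.5 CPM in 4117 and 4128, 25.6 and 16.9 CPM in 4139 and 4168, and 14.1 to 20.2 CPM in TRT0_H. What the higher values of calf 4117 rest on was not tested.

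The other higher genes have other known functions. HN1L had narrow groups, at 50.5, 50.6, 56.5 and 55.1 CPM in TRT0_H and 75.6, 65.2, 72.5 and 69.9 CPM in TRT12_H, a log2 fold change of 0.41 (SE 0.14, unadjusted p = 0.00648) that stayed between 0.38 and 0.45 with each calf left out. LRRN1, a leucine-rich repeat membrane protein, was at 2.02, 2.66, 3.19 and 1.01 CPM in TRT0_H and at 3.598, 6.64, 5.96 and 5.64 CPM in TRT12_H. OSER1, named for its response to oxidative stress, was at 12.7 to 17.3 CPM and at 17.8 to 25.1 CPM. None of HN1L, LRRN1 and OSER1 overlapped between the groups, but they were named for a low p in the same calves. Over all genes tested 0.903% were higher in TRT12_H without overlap. LRRN1 rested on few counts, 5, 6, 7 and 2 in TRT0_H and 5, 22, 23 and 10 in TRT12_H. ACSL5, which activates long-chain fatty acids, and PLAT, the tissue plasminogen activator, overlapped, with log2 fold changes of 0.45 (SE 0.16) and 0.83 (SE 0.30). ACSL5 was at 0.29 without calf 4117 and 0.14 without both calves of lane 1. PLAT was at 0.49 without calf 4168 and 0.42 without both calves of lane 1, and within lane 6 its difference was -0.15. ENSBTAG00000017722 had the lowest unadjusted p among higher genes (0.000190), at 29.9, 17.3, 31.0 and 23.3 CPM in TRT0_H and 35.3, 57.6, 60.9 and 68.2 CPM in TRT12_H, and edgeR's exact test called it at an adjusted p of 0.0676, against 0.9999 in the quasi-likelihood test.

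**Figure D2:**
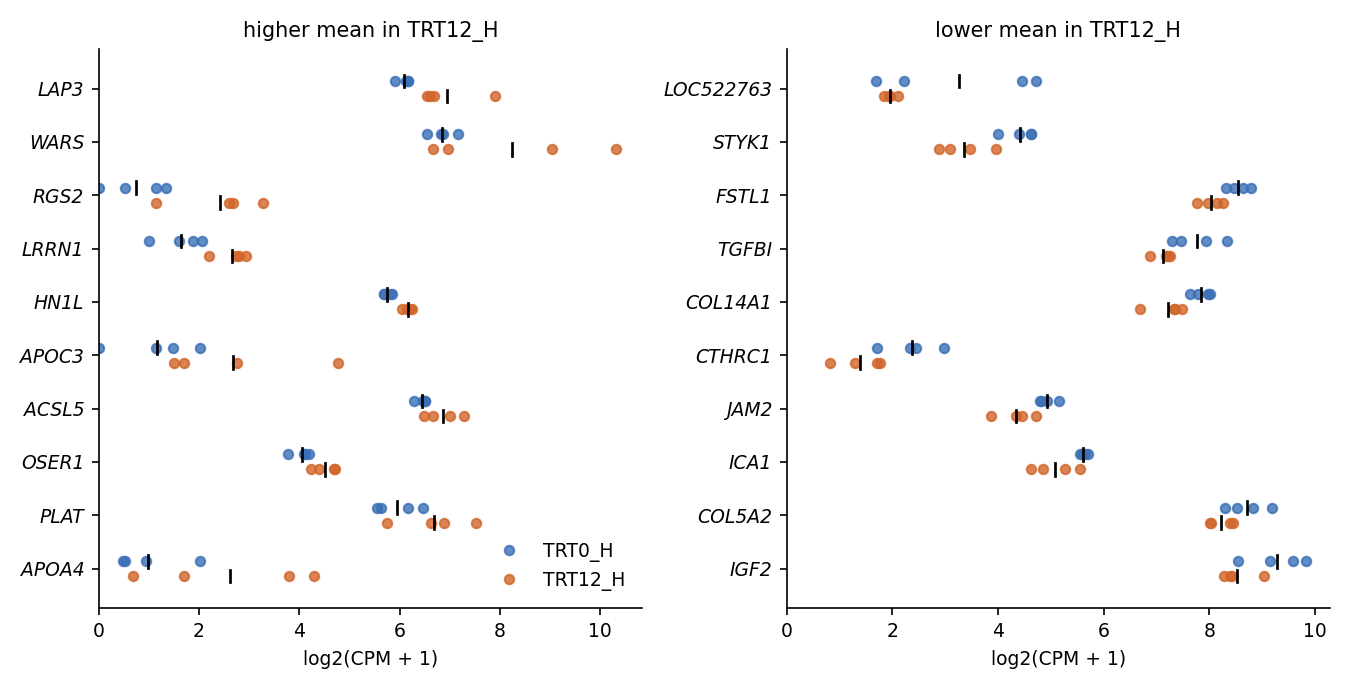
Level of each calf, as log2(CPM + 1) on the x axis, for the 10 genes with a symbol and the lowest unadjusted p in each direction, with TRT0_H in blue, TRT12_H in orange and the mean of the 4 log2 values as a black line. LAP3, LRRN1, HN1L and OSER1 among the higher genes, and STYK1, FSTL1, TGFBI, COL14A1 and JAM2 among the lower genes, show no overlap of the groups, while WARS and APOC3 spread widely in TRT12_H.

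No gene of the epithelium was called by the quasi-likelihood test. CA1, the carbonic anhydrase of colonocytes, was at 22.2, 24.9, 42.4 and 28.8 CPM in TRT0_H and at 110.1, 47.1, 66.6 and 78.3 CPM in TRT12_H. All TRT12_H calves were above all TRT0_H calves, with a log2 fold change of 1.33 (SE 0.57, unadjusted p = 0.0276). For CA1 the adjusted p was 0.9999 in the quasi-likelihood test and 0.0475 in edgeR's exact test on the 8 calves. In lanes 6 and 7 alone the difference of CA1 was 1.01 and 0.87 on the log2 scale. In calves of cows, which share no animal with these groups, the log2 fold change of CA1 was 1.34. SLC26A3 and AQP8, other markers of colonocytes, had log2 fold changes of 0.07 and -0.02 in heifers' calves, with unadjusted p of 0.805 and 0.956. Of 22 colonocyte genes tested, 17 had a higher mean in TRT12_H, 2 of them at an unadjusted p under 0.05 (background for higher genes 1.73%), and the median was 0.16. This median was -0.02 without TRT12_H calf 4168, 0.07 without TRT0_H calf 4124, 0.10 without both calves of lane 1 and 0.04 with lane as a term, and within lane 7 the mean was lower in 14 of the 22 genes. APOA4, an apolipoprotein made by enterocytes, was the other, with 18, 2, 72 and 4 counts in TRT12_H and 1, 1, 2 and 6 counts in TRT0_H. Scaled to library size, APOA4 was at 12.95 and 18.65 CPM in calves 4117 and 4139 and at 3.04 CPM at most in TRT0_H, and its log2 fold change of 2.88 (SE 1.03) was 1.93 without calf 4139. APOC3, a related apolipoprotein, was highest in calf 4139, with 102 counts against 4 to 8 in the other TRT12_H calves and 0 to 6 in TRT0_H. For APOC3 the log2 fold change of 2.69 (SE 0.93) was 0.99 without that calf. The differences of APOA4 and APOC3 were 3.63 and 4.11 on the log2 scale within lane 6, and -0.59 and -0.09 within lane 7.

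None of 10 goblet cell and mucin genes and none of 17 genes of short chain fatty acid handling had an unadjusted p under 0.05. Of 20 ion and water transport genes only AQP1 had such a p (background 3.51% in either direction). EPCAM, CDH1, KRT8, KRT19 and VIL1, which mark epithelial cells in general, had log2 fold changes of 0.01, 0.13, 0.04, -0.16 and 0.32, with unadjusted p of 0.9502, 0.416, 0.864, 0.513 and 0.113. AQP1, a water channel, was at 218.0 to 308.3 CPM in TRT0_H and 125.2 to 252.4 CPM in TRT12_H (log2 fold change -0.54, unadjusted p = 0.0275). Of 15 tight junction genes only JAM2, a junction protein of endothelium, was under 0.05 (background 3.51% in either direction). JAM2 was at 29.5, 34.6, 27.3 and 26.8 CPM in TRT0_H and at 13.7, 19.3, 25.4 and 20.9 CPM in TRT12_H, with no overlap and a log2 fold change of -0.55 (SE 0.19, unadjusted p = 0.00714). PECAM1, an adhesion molecule of endothelium, was at 78.8 to 105.1 CPM in TRT0_H and 49.0 to 82.4 CPM in TRT12_H. Its log2 fold change was -0.43 (SE 0.17, unadjusted p = 0.0166), and within lane 6 its difference was -0.02. VWF, another marker of endothelium, had a log2 fold change of -0.32 (unadjusted p = 0.0666). KDR, the endothelial receptor of VEGF, had a log2 fold change of -0.02 (SE 0.15).

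Of the other immune genes, 1 of 14 antimicrobial and acute phase genes, 1 of 10 cytokine and chemokine genes, and 0 of 4 genes of pattern recognition and NF-kB had an unadjusted p under 0.05 (background 3.51% in either direction). M-SAA3.2, a serum amyloid A of mucosa and mammary gland, had 29, 44, 1 and 39 counts in TRT12_H and 1, 4, 9 and 1 counts in TRT0_H, so calf 4139 lay at the level of TRT0_H. CXCL17, a chemokine of mucosal surfaces, was at 18.2 to 36.0 CPM in TRT0_H and 10.1 to 20.9 CPM in TRT12_H (log2 fold change -0.73, SE 0.28, unadjusted p = 0.0131). STAT3 was at 281 ± 66.6 CPM (SD, n = 4) in TRT0_H and 279 ± 63.8 CPM (SD, n = 4) in TRT12_H. CCL14, a chemokine, was at 4.41 ± 0.971 CPM in TRT0_H and 6.58 ± 3.27 CPM in TRT12_H, with overlap (unadjusted p = 0.191). The Fc receptor FCGRT, which carries immunoglobulin G across epithelia, was at 130.1 to 183.6 CPM in TRT0_H and 137.0 to 185.4 CPM in TRT12_H. The other genes of mucosal immunity that the study picked out, IL10, NFKB1, TNF, TLR2, TLR4, CLDN4 and PGLYRP1, had no identifier in hand and were not analysed here.

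Of the 10 genes with a symbol, a lower mean in TRT12_H and the lowest unadjusted p, FSTL1, TGFBI, COL14A1, CTHRC1 and COL5A2 code for proteins of connective tissue. FSTL1, a secreted glycoprotein of mesenchymal cells, was at 396.0, 354.3, 316.9 and 440.1 CPM in TRT0_H and at 249.7, 304.2, 282.5 and 217.5 CPM in TRT12_H. COL14A1, a collagen that binds to fibrils, was at 249.3, 218.9, 197.2 and 258.5 CPM in TRT0_H and at 162.6, 178.7, 159.8 and 102.6 CPM in TRT12_H. TGFBI, a matrix protein induced by transforming growth factor beta, was at 323.3, 155.4, 175.8 and 245.3 CPM and at 147.5, 152.7, 144.5 and 116.1 CPM. For each of FSTL1, COL14A1 and TGFBI the groups did not overlap, by a narrow margin. Their log2 fold changes were -0.51 (SE 0.16), -0.61 (SE 0.20) and -0.68 (SE 0.22), with unadjusted p of 0.00358, 0.00514 and 0.00474. CTHRC1, a secreted protein of fibroblasts, had 17, 10, 5 and 8 counts in TRT0_H and 2, 8, 3 and 4 counts in TRT12_H. IGF2, a growth factor of fetal and newborn tissue, was at 764.2, 566.9, 372.0 and 909.5 CPM in TRT0_H and at 334.7, 520.6, 345.0 and 308.2 CPM in TRT12_H, with a log2 fold change of -0.79 (SE 0.29, unadjusted p = 0.00987).

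Of 30 symbols in the list of fibroblast and matrix genes, 22 were tested. A lower mean in TRT12_H was found in 21 of them under each scaling that kept all 22, and 12 had an unadjusted p under 0.05 (background for lower genes 1.78%, or 1.60% among genes with a symbol). The median log2 fold change was -0.44 against 0.00 over all genes tested. The 12 were COL1A1, COL1A2, COL3A1, COL5A2, COL12A1 and COL14A1, which are collagens, with FN1, FBN1, SPARC, DCN, LUM and DPT, which are glycoproteins and proteoglycans of the matrix. COL3A1, the collagen of reticular fibres, was at 6630, 4979, 4287 and 6370 CPM in TRT0_H and at 4010, 4610, 4397 and 3250 CPM in TRT12_H. FBN1, which forms microfibrils, was at 716.9, 564.3, 472.7 and 728.9 CPM and at 432.5, 536.0, 474.4 and 320.1 CPM. In 17 of the 22 genes TRT0_H calves 4124 and 4164 were the highest of their group, as in COL3A1 and FBN1. These were the TRT0_H calves of lane 7, and 4135 and 4138 were those of lane 6. The groups overlapped in 21 of the 22 genes. PDGFRA and PDGFRB, receptors that mark the fibroblasts and pericytes themselves, had log2 fold changes of -0.18 (SE 0.13) and -0.22 (SE 0.15).

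Genes of 1 tissue are not independent observations, and the lists were chosen with earlier results of these data known. The count of 12 also rested on few calves. It was 2 without TRT0_H calf 4124, 5 without calf 4164, 4 without TRT12_H calf 4168 and 6 without calf 4117, and it was 0 without 4117 and 4168 together, when the median was -0.29. With lane as a term it was 9. Within lane 6 the median difference was -0.09 on the log2 scale, with 18 of 22 genes lower, and within lane 7 it was -0.43, with 22 of 22 lower. Markers of fat were lowest in TRT12_H calves 4117 and 4168. ADIPOQ, which fat cells secrete, was at 133.4 to 353.6 CPM in TRT0_H, and calf 4124 was the lowest of that group. In TRT12_H it was at 207.6 and 120.2 CPM in calves 4128 and 4139, and at 14.4 and 18.03 CPM in calves 4117 and 4168. LPL, the lipoprotein lipase and the other tested member of the adipocyte list, was at 143.4 to 203.3 CPM in TRT0_H, at 187.1 and 140.1 CPM in 4128 and 4139, and at 87.1 and 71.6 CPM in 4117 and 4168. All 19 smooth muscle genes tested had a lower mean in TRT12_H, with a median of -0.14 against 0.00 over all genes tested. Without the 2 calves of lane 1 the median was -0.02. Within lane 6 it was 0.01, with 9 of 19 genes lower, and within lane 7 it was -0.05, with 14 lower. Only ACTA2, the smooth muscle actin, had an unadjusted p under 0.05 (background for lower genes 1.78%). The sum of the 19 genes ranged from 16470 to 22560 CPM in TRT0_H and from 14200 to 19950 CPM in TRT12_H. The part of fat and muscle in the values of the matrix genes was not tested.

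**Figure D3:**
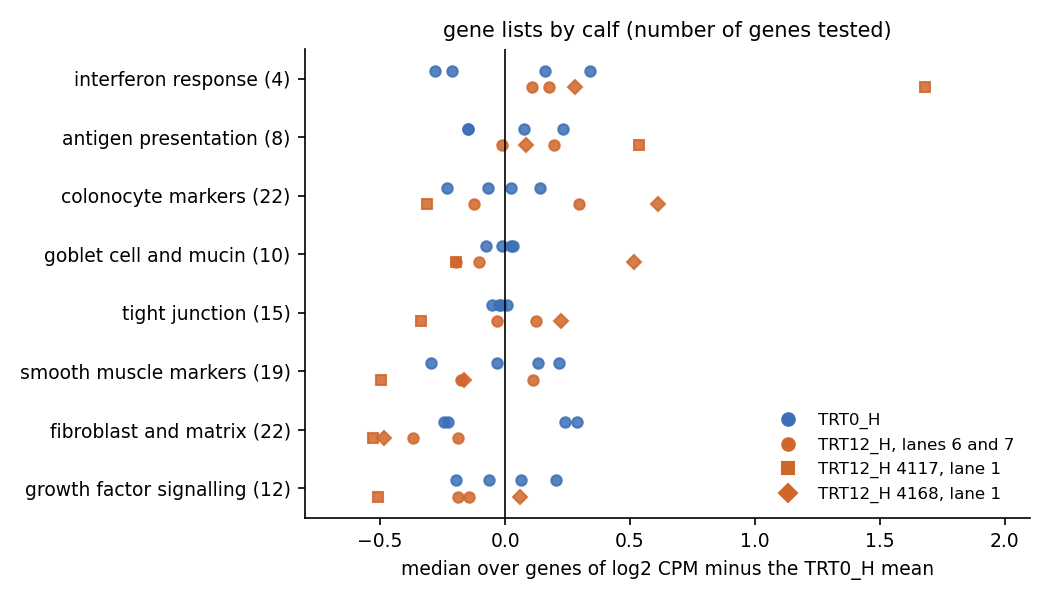
For each gene list (y axis, number of genes tested in brackets), the median over its genes of log2 CPM minus the TRT0_H mean of the gene (x axis), 1 point per calf, with TRT0_H in blue, TRT12_H in orange and the TRT12_H calves of lane 1 as a square (4117) and a diamond (4168). Calf 4117 lies at 1.68 for the interferon response against 0.34 at most in any other calf, and for fibroblast and matrix genes TRT12_H calves lie from -0.53 to -0.19 and TRT0_H calves from -0.24 to 0.29.

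Of 35 lists, 21 had no gene under an unadjusted p of 0.05 (background 3.51%), among them 58 cytosolic ribosomal protein genes, 13 mitochondrially encoded genes, 15 genes of stem and cycling cells, 11 heat shock genes and 7 glucocorticoid response genes. HKDC1, a hexokinase-like enzyme, was at 8.08 to 20.2 CPM in TRT0_H and 14.5 to 29.9 CPM in TRT12_H and was the only 1 of 17 glycolysis genes under 0.05. DNAJB11, a chaperone of the endoplasmic reticulum, was at 22.3 to 34.4 CPM in TRT0_H and at 60.5, 29.3, 25.9 and 50.2 CPM in TRT12_H, the only 1 of 23 genes of its list. Its higher calves were those of lane 1, and without them its log2 fold change was 0.03 in place of 0.58.

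Other lower genes had patterns of their own. STYK1, a receptor-like kinase, was at 23.8, 15.1, 23.7 and 20.2 CPM in TRT0_H and at 10.1, 6.34, 7.51 and 14.7 CPM in TRT12_H, without overlap. Its log2 fold change was -1.17 (SE 0.32, unadjusted p = 0.00112), it stayed between -1.43 and -0.99 with each calf left out, and in lanes 6 and 7 alone it was -1.24 and -1.66. ENSBTAG00000017071 was also without overlap, at 21.3 to 32.9 CPM in TRT0_H and 8.64 to 17.5 CPM in TRT12_H. ICA1, a protein of secretory vesicles, was at 45.99 to 50.9 CPM in TRT0_H and at 23.8, 28.1, 46.1 and 37.8 CPM in TRT12_H.

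The lowest unadjusted p of all (0.000187) belonged to ENSBTAG00000045494, which was present in some calves and nearly absent in others. It had 2914 and 1592 counts in TRT0_H calves 4135 and 4138, 1 count each in 4124 and 4164, and 0, 2, 10 and 2 counts in TRT12_H. Its groups therefore overlapped, and calves with and without it were found within TRT0_H. The TRT0_H calves with it were those of lane 6 and the TRT0_H calves without it those of lane 7, so that its difference was -8.11 on the log2 scale within lane 6 and 0.15 within lane 7. DESeq2 called this gene at an adjusted p of 0.0166 and edgeR's exact test at 0.0525, while the quasi-likelihood test gave 0.9999. Over 100 CPM of it were found in 2 of 4 TRT0_H, 2 of 4 TRT6_H, 0 of 4 TRT12_H and 1 of 5 TRT0_C calves, and in none of the 5 TRT6_C or the 5 TRT12_C calves. LOC522763 was similar, at 20.95 and 25.3 CPM in TRT0_H calves 4138 and 4164 and at 2.22 to 3.64 CPM in the others, with 2.59 to 3.32 CPM in TRT12_H.

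To ask whether the difference depended on the parity of the dam, the change from TRT0 to TRT12 in calves of heifers was set against that in calves of cows. By this interaction test 1 of 14515 genes (0.00689%) was called, and 530 (3.65%) had an unadjusted p under 0.05. The gene was RGS2, a regulator that shortens signals of G protein-coupled receptors, and the study itself had picked it out from these calves, so that its place here is not independent evidence. RGS2 had 3, 1, 0 and 3 counts in TRT0_H and 12, 4, 21 and 9 counts in TRT12_H, which are 1.21, 0.444, 0 and 1.52 CPM against 8.64, 1.21, 5.44 and 5.07 CPM. TRT12_H calf 4128 lay inside the TRT0_H range, and the others were above it. Over summed counts, 46 against 7, the ratio was 5.66 (95% exact interval 2.54 to 14.9, counting error only). RGS2 was not called within heifers' calves, with 2.51 as its log2 fold change (SE 0.68, unadjusted p = 0.000885) and an adjusted p of 0.9999 by edgeR's quasi-likelihood test.

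In calves of cows RGS2 lay the other way, at 6.90 ± 1.82 CPM (SD, n = 5) in TRT0_C and 0.917 ± 0.894 CPM (SD, n = 5) in TRT12_C, with a log2 fold change of -2.75 (SE 0.57). The difference between parities was 5.26 on the log2 scale (SE 0.88), with an adjusted p of 0.0256 by edgeR's quasi-likelihood test. Over 28 alternatives the difference stayed between 4.78 and 5.85, with adjusted p from 2.01e-06 to 0.361. The call was lost with sequencing lane as a term (adjusted p = 0.184), without both TRT12_H calves of lane 1 (0.361), without TRT0_H calf 4135 (0.118) and without TRT12_H calf 4139 (0.115) by the same edgeR test. Within lane 6 the RGS2 difference of heifers' calves was 2.50 on the log2 scale and within lane 7 it was -0.10. In TRT6_H calves, which are compared with the same TRT0_H calves, RGS2 was at 3.37 to 10.8 CPM.

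**Figure D4:**
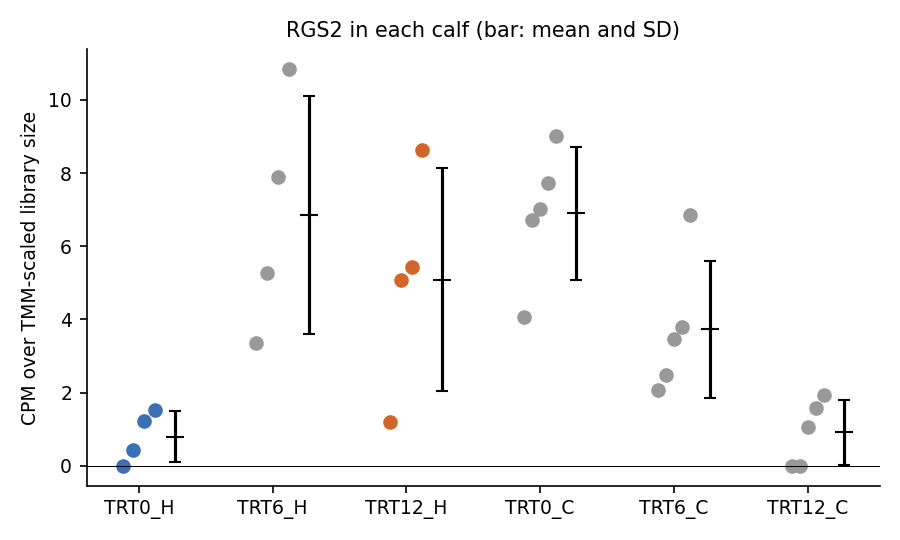
RGS2 level in CPM over the TMM-scaled library size (y axis) for every calf of the 6 groups (x axis), with the mean and SD of each group beside its points and TRT0_H in blue and TRT12_H in orange. TRT0_H calves reach at most 1.52 CPM and TRT12_C calves at most 1.94 CPM, while the lowest TRT0_C calf is at 4.06 CPM.

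For the other genes the parities were compared without a call. The log2 fold changes of TRT12 against TRT0 over the 14515 genes had a Pearson correlation of 0.0711 between calves of heifers and calves of cows, a description across genes from groups that share no calf. Of the 22 fibroblast and matrix genes, 10 had an interaction at an unadjusted p under 0.05 toward lower values in heifers' calves (background 1.83%). Their median log2 fold change was -0.44 in calves of heifers and 0.15 in calves of cows. Lane 1 held TRT12 but no TRT0 calves of heifers, and TRT0 but no TRT12 calves of cows. A difference between lanes would therefore enter these comparisons of the parities, and its part in the matrix genes and in the correlation was not tested. The lowest unadjusted p of this test in the list was that of COL12A1 (interaction -0.74, SE 0.25, unadjusted p = 0.00623). The interaction of LAP3 was 0.89 (unadjusted p = 0.0102), and that of WARS was 1.998 (unadjusted p = 0.0124). The interaction contains the TRT12_H vs. TRT0_H difference by which LAP3 and WARS were named and on which the matrix genes were described, so a low p in it is no separate evidence, and 9 of the 12 higher genes named by lowest p were under 0.05 in it. GP2, a glycoprotein of the cells that sample antigens from the lumen, had an interaction of -4.56 (unadjusted p = 0.0145) and varied widely, at 143.5, 2.66, 309.7 and 93.1 CPM in TRT0_H and 12.2, 114.4, 3.11 and 2.25 CPM in TRT12_H.

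**Figure D5:**
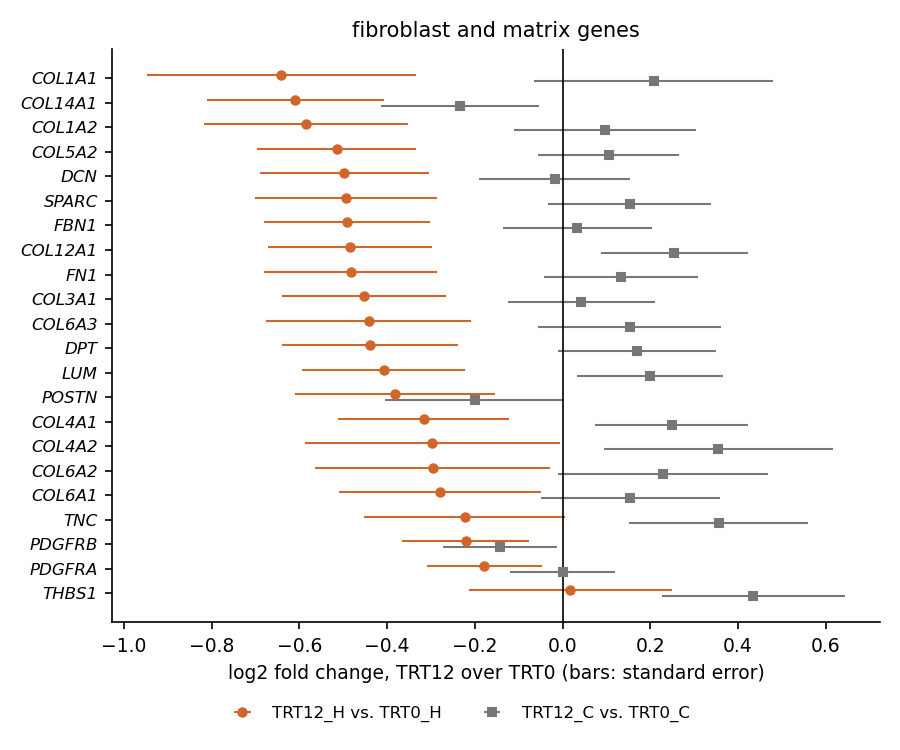
Log2 fold change of TRT12 over TRT0 (x axis) with its standard error for the 22 fibroblast and matrix genes tested (y axis), in calves of heifers (orange circles) and calves of cows (grey squares). In heifers' calves 21 of 22 lie below 0, COL1A1 lowest at -0.64, and in cows' calves the median lies at 0.15.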

How the data were processed

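RNA of colon tissue from 27 calves was sequenced, and the authors deposited a table of raw read counts by Ensembl gene and calf, with no normalization. The authors filtered reads, aligned them to the bovine genome UMD 3.1 with Tophat 2.1.1, sorted with Samtools 1.4 and counted with HTSeq, dropping reads of more than 1 gene. The strand setting is not given in the sources used here, so overlapping and antisense genes are uncertain. Treatment came from the labels and dam parity from the animal list of the study.

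Here, genes with 1 CPM or more (over the sum of gene counts) in at least 4 of the 8 calves were tested with edgeR 4.0.16 (R 4.3.3, limma 3.58.1), with TMM factors and its quasi-likelihood test, fitting the 27 calves together as 6 groups. CPM values in the text use TMM-scaled totals. Unadjusted p and fold changes come from this fit. It was tested on simulated data: of 200 genes changed among 14515 in TRT12_H vs. TRT0_H, 58.1% of 2-fold, 87.1% of 4-fold and 94.1% of 8-fold changes were called, with 23 false calls among 184. Changes under 2-fold were not simulated. The simulated counts were drawn independently for each gene from the fitted spread, without differences between lanes or variation shared by genes. The rates are therefore a check of the procedure and not its power in these calves. A level of 3 counts was 0.714 to 2.28 CPM. Named genes were, by rule, the 10 in each direction with the lowest unadjusted p, called genes, genes picked out by the study, up to 4 per list, and genes called under an alternative. LPL, FCGRT, GP2, BOLA-DRA, CD74 and the matrix genes beyond 4 were chosen after their values were seen. Members and lists were chosen with earlier results of these data known. Symbols came from gene tables of the study, of which 4045 identifiers were used, and 1 gene is not reported here. Alternatives included DESeq2 1.42.0, other scalings and filters, lane as a term, and leaving out calves. The tests treat each calf as a replicate.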

Additional observations from a re-analysis of the deposited data

Results flagged for a closer look

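RGS2 differed between the parities in its change from TRT0 to TRT12, by 5.26 on the log2 scale (adjusted p = 0.0256, edgeR's interaction test over 14515 genes). Counts of this gene were low, at 0 to 21 per calf in the groups of heifers' calves, and calves of cows held 77 counts in TRT0_C and 11 in TRT12_C.

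In 76 groups of 4 calves, made of 38 named genes in TRT0_H and TRT12_H, a single calf stood apart by Dixon's rule in 3, and chance gives about 5% of groups. Calf 4139 was highest for APOC3 in TRT12_H, at 26.4 CPM. Calf 4117 was highest for LAP3 in TRT12_H, at 239.7 CPM, and calf 4124 was lowest for LAP3 in TRT0_H, at 59.0 CPM.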

How the results depend on the processing

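No paired analysis was possible because the calves carry ear tag numbers that no group shares. The count of genes called in TRT12_H vs. TRT0_H stayed at 0 under 19 of 21 alternatives, among them every calf left out (0 to 0), and was 1 with DESeq2 and 3 with edgeR's exact test. The count at an unadjusted p under 0.05 (510) was 334 with sequencing lane as a term and 247 without both TRT12_H calves of lane 1, and it ran from 361 to 871 with 1 calf left out, lowest without 4117 and highest without 4128. The count called between parities was 0 with lane as a term, 0 without both calves of lane 1, and 0 to 1 with 1 calf left out. For RGS2 the difference between parities was then 5.29 and 4.78, and 4.88 to 5.85 with 1 calf left out. The alternatives for RGS2, for the list counts and, apart from the likelihood ratio test, lane and the filter of the study, for the count between parities were chosen after seeing the data. STAT3, with a log2 fold change of -0.02, turned to 0.02 with library totals and 0.00 without the 10 highest genes, and lay between -0.17 and 0.14 with 1 calf left out. Of 760 values of named genes under alternatives, 750 kept their direction and call, 4 were called (CA1, ENSBTAG00000017722 and, under both tools, ENSBTAG00000045494) and 6 were those of STAT3. Of 640 list medians 16 moved by more than the spread between calves. The causes were not tested.

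Depth of the count table limits genes such as RGS2, LRRN1, CTHRC1 and APOA4 in TRT0_H, with a handful of counts per calf.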
